A study of Mus musculus with 6 samples.

Results

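Genes of 10 transporters of the blood-brain barrier were followed across the cell types of the neonatal mouse cortex and between wild type (WT) and *Fmr1*-KO mice. They were chosen by name, as carriers and pumps known from brain capillaries, and are 10 of the 17418 genes in the table. They comprise *Slc2a1* and *Slc16a1* (fuel), *Slc7a5*, *Slc3a2*, *Slc7a1* and *Slc38a5* (amino acids), *Mfsd2a* (lipid), *Slco1c1* (thyroid hormone), and *Abcb1a* and *Abcg2* (efflux). Cells were profiled with InDrop, which encloses single cells with barcoded beads in droplets and gives every transcript it captures its own molecular tag (a unique molecular identifier, UMI). The cerebral cortex of both hemispheres was dissociated with papain on postnatal day 5 from 3 WT mice of the line FVB.129P2-Pde6b+ Tyrc-ch/AntJ and from 3 *Fmr1*-KO mice of the line FVB.129P2-Pde6b+ Tyrc-ch Fmr1tm1Cgr/J, which lack a working *Fmr1* gene in all cells and otherwise share that background. Batch 1 (bead version V2) held WT 1, *Fmr1*-KO 1 and *Fmr1*-KO 2, and batch 2 (bead version V3.8) held WT 2, WT 3 and *Fmr1*-KO 3, so that batch and bead version cannot be told apart.

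The endothelial cells of brain capillaries are sealed to each other by tight junctions and carry few transport vesicles. Nutrients therefore enter the brain mainly through membrane carriers of the endothelial cells, and pumps of the ABC family return many lipid-soluble compounds to the blood. In the days after birth the mouse brain takes up ketone bodies and lactate beside glucose and still adds vessels by sprouting.

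The cell types are those that the authors deposited with each cell, and 17280 of 18393 cells were used once the 1113 with the label doublets had been dropped, all from 17 libraries. There were 1439 endothelial cells, with 81, 190 and 398 in WT 1, WT 2 and WT 3 and 127, 262 and 381 in *Fmr1*-KO 1, *Fmr1*-KO 2 and *Fmr1*-KO 3. They gave 333085 to 2285566 UMIs per mouse, with a median per cell of 1774 to 5475.5. The authors named their clusters by known markers, so marker levels describe the label and do not test it. All 14 endothelial markers listed, such as *Cldn5* and *Pecam1*, had UMIs in the endothelial cells of every mouse, with a summed level of 15187 to 18410 CPM. All 10 pericyte markers also had UMIs there in every mouse, at lower levels. The summed level was 346 to 1656 CPM for 10 pericyte markers, 657 to 1098 for 10 astrocyte markers, 61.3 to 562 for 10 neuron markers, 42.0 to 129 for 10 microglia markers, 34.1 to 144 for 8 fibroblast markers and 175 to 466 for 7 erythroid markers, and the only markers without an endothelial UMI were *Lum*, *Slc6a13* and *Hemgn*. Here and below, CPM are the UMIs of a gene scaled to 1000000 UMIs of the same cells of a mouse. *Fmr1* had 8, 24 and 68 UMIs in endothelial cells of WT 1 to WT 3 and 5, 10 and 9 in *Fmr1*-KO 1 to *Fmr1*-KO 3, and was 68.4 to 74.1 CPM over all cells of the WT mice and 16.1 to 19.9 CPM in *Fmr1*-KO. The libraries of a mouse shared barcodes: of 3307 pairs of cells with 1 barcode in 2 libraries of the same mouse, 93.3% had the same subtype, against 16.7% of 468 pairs from different mice. The genotype tests within a cell type were therefore also run with 1 cell per barcode and mouse. Levels, shares, correlations, within-batch differences, interaction terms and marker classes keep all cells.

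All 10 transporters were highest in endothelial cells, in each of the 6 mice, among the 15 subtypes with at least 10 cells in at least 3 mice. The 10 genes together took 15188 CPM ± 927 (SD, n = 6) of the endothelial UMIs, and the next subtype, Astrocytes_1, had 1250 ± 166 (SD, n = 6). Because the subtypes were clustered on these same cells, levels between subtypes are given without a test. Endothelial cells made up 8.33% of the cells and 8.77% of the UMIs, and held from 26.8% (*Slc3a2*) to 96.7% (*Abcb1a*) of the UMIs of a transporter.

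**Figure D1:**
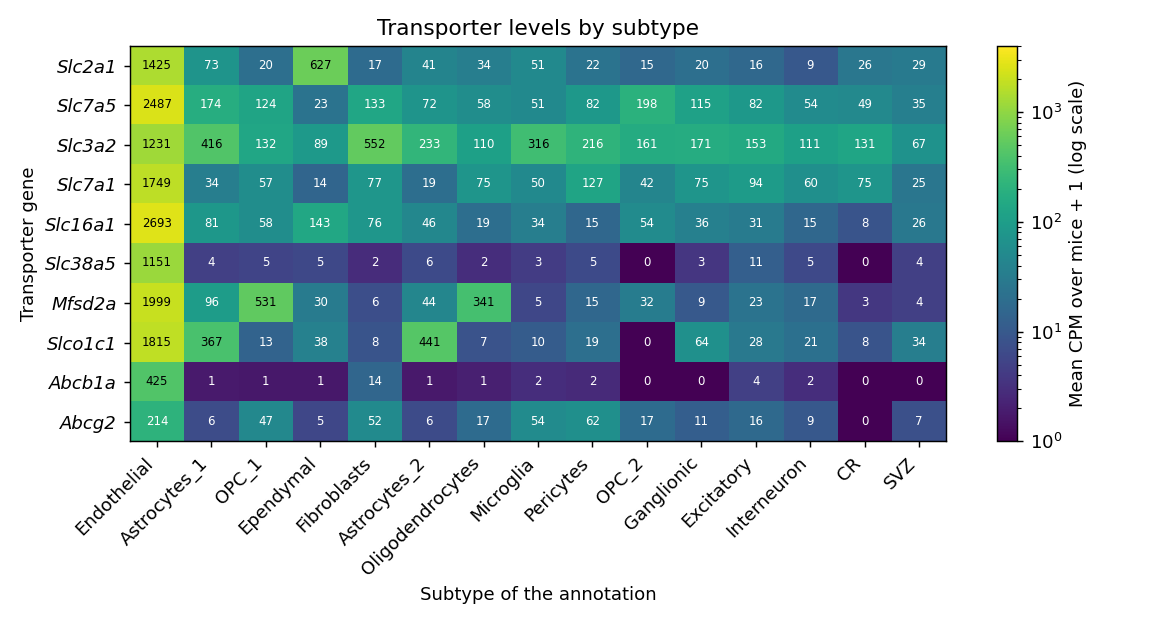
Mean CPM over mice of each transporter gene (rows) in the 15 subtypes (columns, ordered by the sum of the 10 genes), with the colour on a log scale of CPM + 1 and the mean CPM written in each cell. The endothelial column is the highest in every row, with second sites for *Slc2a1* in ependymal cells, *Mfsd2a* in OPC_1 and oligodendrocytes, and *Slco1c1* in both astrocyte subtypes.

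The UMIs of the glutamine carrier *Slc38a5* and of the efflux pump *Abcb1a* lay almost wholly in endothelial cells. *Slc38a5* had 1151 CPM ± 440 (SD, n = 6) in endothelial cells and 11.4 ± 7.70 in the next subtype, excitatory neurons, and endothelial cells held 96.5% of its UMIs. *Abcb1a*, which encodes P-glycoprotein, had 425 ± 47.8 (SD, n = 6) and was next at 14.3 ± 12.5 (SD, n = 3) in fibroblasts, from 9 UMIs. The fuel carrier *Slc16a1* (monocarboxylates) had 2693 ± 666 (SD, n = 6), against 143 ± 48.1 in ependymal cells. The cationic amino acid carrier *Slc7a1* had 1749 ± 393 (SD, n = 6), against 127 ± 47.3 in pericytes. *Slc7a5*, the light chain of the carrier of large neutral amino acids, had 2487 ± 678 (SD, n = 6), against 198 ± 86.5 (SD, n = 5) in OPC_2.

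Other transporters had a second site of expression. The glucose carrier *Slc2a1* had 1425 CPM ± 454 (SD, n = 6) in endothelial cells and 627 ± 113 in ependymal cells, which line the ventricles, and every ependymal value was above every value of the subtype after it, Astrocytes_1 (73.0 ± 15.6). *Slc3a2*, the heavy chain that carries *Slc7a5* and other light chains to the membrane, was the most widespread, with 1231 ± 263 in endothelial cells, 552 ± 199 (SD, n = 3) in fibroblasts, 416 ± 30.4 in Astrocytes_1 and 316 ± 56.6 in microglia. *Mfsd2a*, a carrier of lysophospholipids, had 1999 ± 258 in endothelial cells and 531 ± 125 in OPC_1, the main oligodendrocyte precursors. The thyroid hormone carrier *Slco1c1* had 1815 ± 293 in endothelial cells, followed by 441 ± 106 in Astrocytes_2 and 367 ± 118 in Astrocytes_1. *Abcg2*, the other efflux pump, had 214 ± 32.6 in endothelial cells, 61.6 ± 14.1 in pericytes and 53.7 ± 18.1 in microglia. For each gene but *Slc2a1* the values of the next 2 subtypes after endothelial cells overlapped between mice.

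Most endothelial cells carried several of the transporters at once. After each cell was thinned to 700 UMIs, the median endothelial cell had a UMI of 5 or 6 of the 10 genes in each mouse, and 0% to 3.17% of the endothelial cells of a mouse had none. In excitatory neurons, taken for comparison, the median was 0 and 70.6% to 82.1% of the cells of a mouse had none. Free RNA was not measured, so the neuron values are not a background level. *Slc7a5* had a UMI in 71.4% ± 7.06 (SD, n = 6) of the thinned endothelial cells and in 4.29% ± 1.56 of the excitatory neurons. *Abcb1a*, with few UMIs, had one in 25.0% ± 4.0 and 0.299% ± 0.273. Without thinning these shares were 90.2% ± 5.01 and 20.2% ± 8.83 for *Slc7a5* and 63.3% ± 10.6 and 1.16% ± 0.660 for *Abcb1a*, at a median of 3687 UMIs per endothelial cell and 1274 per excitatory neuron. Thinning left out 12 of 1439 endothelial cells and 13 of 2160 excitatory neurons. For all 10 genes the share was higher in endothelial cells in 6 of 6 mice.

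Over the 14 subtypes with at least 100 cells, the genes whose level followed *Slc38a5* most closely were *Tmem252* (Pearson r = 0.970), *Sox17*, an endothelial transcription factor (0.963), and *Slco1a4*, an organic anion carrier of the barrier (0.959). For *Abcb1a* they were *Tnfrsf25* (0.975), *St6galnac2* (0.974) and *Gata2* (0.971), and for *Slc7a5* they were *C130074G19Rik* (0.893), *Gpr4* (0.882) and the transferrin receptor *Tfrc* (0.871). For *Mfsd2a*, with its second site in OPC_1, they were *Ccl5* (0.887), *S100a16* (0.842) and the caveolar gene *Cav1* (0.840). These correlations are of log2(CPM + 1) pooled over mice across 14 points from the same libraries and are descriptions. *Abcb1a* had *Slc38a5* at rank 28 among all genes (r = 0.904), and *Slco1c1* had *Slc38a5* at rank 31 (r = 0.739). The lowest correlation between 2 transporters was that of *Slco1c1* and *Abcg2* (r = 0.0981).

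The promoters of the transporters were read as the 250 bases before the RefSeq transcript starts (build GRCm38.p6, the same assembly as mm10), which were found for 9 of the 10 genes in 12 windows. No window was found for *Slc7a5*. The 3 shown belong to the 2 genes with the largest part of their UMIs in endothelial cells and to the gene with the smallest. Capitals mark the core ACGTG of the hypoxia response element, on either strand.

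*Slc38a5*, plus strand, chrX:8271131-8271380: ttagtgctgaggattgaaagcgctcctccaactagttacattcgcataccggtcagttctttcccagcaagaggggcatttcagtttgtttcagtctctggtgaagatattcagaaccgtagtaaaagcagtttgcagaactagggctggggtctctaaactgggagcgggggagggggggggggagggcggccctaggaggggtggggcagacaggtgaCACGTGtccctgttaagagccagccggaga
*Abcb1a*, plus strand, chr5:8566841-8567090: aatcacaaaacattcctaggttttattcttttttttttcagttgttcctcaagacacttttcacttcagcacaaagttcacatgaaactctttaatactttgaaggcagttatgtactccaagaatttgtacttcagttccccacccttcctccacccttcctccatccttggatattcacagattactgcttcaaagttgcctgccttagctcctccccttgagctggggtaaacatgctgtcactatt
*Slc3a2*, minus strand, chr19:8713898-8714147: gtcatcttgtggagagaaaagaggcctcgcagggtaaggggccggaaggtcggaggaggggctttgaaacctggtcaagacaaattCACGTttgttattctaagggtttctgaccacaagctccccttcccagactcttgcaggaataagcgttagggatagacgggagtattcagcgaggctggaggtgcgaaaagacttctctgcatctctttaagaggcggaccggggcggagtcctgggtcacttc

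The core ACGTG was found in 5 of the 12 windows, those of *Slc16a1*, *Slc2a1*, *Mfsd2a*, *Slc3a2* and *Slc38a5*, and in 16.6% of all 32851 promoter windows of the same length. The TCF/LEF motif CTTTGAT, through which Wnt signals act, was found in 1 of the 12 windows, at the second start of *Slc7a1*, and in 3.21% of all windows. The amino acid response motif TGATGNAAN, bound by C/EBP and ATF factors, was found in 0 of the 12 windows and in 3.44% of all. The G+C content was 40.4% for *Abcb1a*, 53.6% for *Slc3a2* and 55.2% for *Slc38a5*, with a median of 52.4% over all windows. Motifs were searched on both strands, and a match describes the letters only. The window of *Abcb1a* ends at 8567090, far upstream of the gene start at 8660077 in the GENCODE annotation. It thus precedes another start than the annotated one, and its letters may not be those of the promoter in use. The windows of *Slc3a2* and *Slc38a5* lie within or almost within the gene.

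The comparison between genotypes asked whether the loss of *Fmr1* went with other transporter levels in endothelial cells. UMIs were summed per mouse and tested with edgeR's quasi-likelihood test with a batch term, over the genes found in 15% or more of the endothelial cells, and a gene was called at an FDR under 0.01 (Benjamini-Hochberg over all genes tested) and a change above the fold minimum of the study's methods. All 10 transporters passed the 15% filter. None was called (0 of 10), and of all 4080 genes tested 0 were called (0%), also with DESeq2. At an unadjusted p under 0.05 there were 2 of the 10 transporters, *Slc38a5* (higher) and *Slc7a5* (lower), beside 449 of all genes (11%), of which 283 were higher (6.94%) and 166 lower (4.07%) in *Fmr1*-KO mice. For 0 of the 10 genes did the mice of the genotypes separate without overlap, as against 3.28% of all genes with the *Fmr1*-KO mice above and 4.9% with them below. The design is small: 3 mice against 3 cannot reach an exact permutation p under 0.1 for a single gene. No permutation test was run between the genotypes, and this limit does not bound the edgeR p-values.

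**Figure D2:**
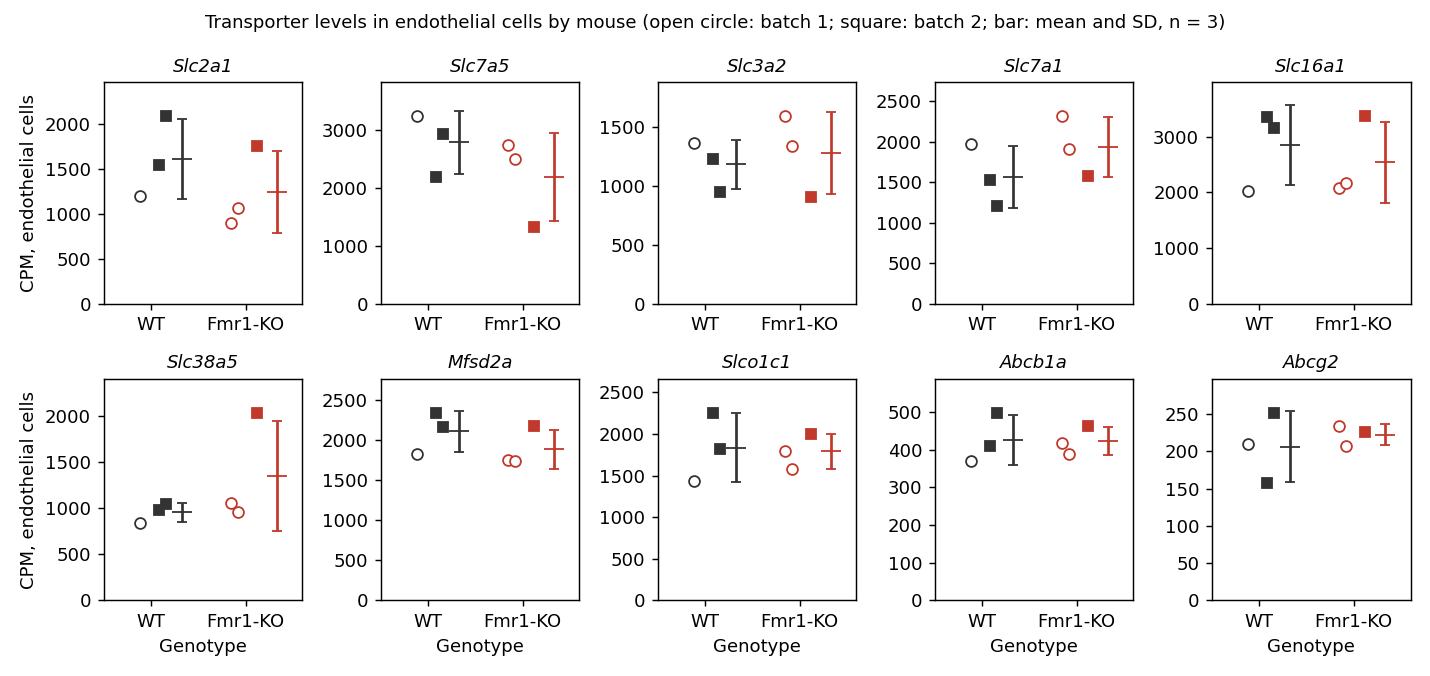
CPM of each transporter in the endothelial cells of each mouse, by genotype (x axis), with open circles for batch 1, squares for batch 2 and a bar for the mean and SD of 3 mice, on axes that start at 0. The genotypes overlap in each panel, and *Fmr1*-KO 3 stands above the other mice for *Slc38a5* and below them for *Slc7a5*.

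*Slc38a5* (chrX:8271133-8280179) encodes a carrier of glutamine, asparagine, histidine and serine. Its endothelial level was 838, 984 and 1040 CPM in WT 1, WT 2 and WT 3 and 1058, 953 and 2034 in *Fmr1*-KO 1, *Fmr1*-KO 2 and *Fmr1*-KO 3. *Fmr1*-KO 3 was the highest mouse, and the other 2 *Fmr1*-KO mice lay within or just above the WT range. The edgeR fit gave 1.64-fold in *Fmr1*-KO (log2 0.72, SE 0.18, FDR = 0.193), rank 13 of 4080 genes by p. Within batch 1 the *Fmr1*-KO mice were higher than WT 1 by 0.34 and 0.19 on the log2 scale, and in batch 2 *Fmr1*-KO 3 was higher than WT 2 and WT 3 by 1.05 and 0.97. Taking the UMIs of a batch together, the difference was 0.25 (95% exact counting interval 0.058 to 0.44) in batch 1 and 0.98 (0.91 to 1.05) in batch 2, which covers counting error only. Without *Fmr1*-KO 3 the edgeR value was 0.25 (FDR = 0.916), and without WT 1 it was 1.13 (FDR = 0.0379). With 1 cell per barcode and mouse it was 0.71 (FDR = 0.208).

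*Slc7a5* (chr8:121881150-121907694) encodes the transport subunit LAT1, which exchanges leucine, phenylalanine, tryptophan and other large neutral amino acids and also carries the drug L-DOPA. Its level was 3239, 2181 and 2935 CPM in WT 1, WT 2 and WT 3, as against 2747, 2503 and 1316 in *Fmr1*-KO 1, *Fmr1*-KO 2 and *Fmr1*-KO 3. *Fmr1*-KO 3 was the lowest mouse, and the other 2 lay within the WT range. The edgeR fit gave 0.668-fold in *Fmr1*-KO (log2 -0.58, SE 0.19, FDR = 0.280), rank 85 of 4080 by p. Within batch 1 the differences were -0.24 and -0.37 on the log2 scale, and within batch 2 they were -0.73 and -1.16. Over the UMIs of a batch together they were -0.32 (95% exact counting interval -0.42 to -0.22) and -1.08 (-1.15 to -1.01). Without *Fmr1*-KO 3 the edgeR value was -0.32 (FDR = 0.915), and with 1 cell per barcode and mouse it was -0.58 (FDR = 0.264).

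The levels of *Fmr1*-KO 3 were alike in its 3 libraries. *Slc38a5* was 1774 to 2309 CPM in them and 755 to 1240 in the 14 libraries of the other mice. *Slc7a5* was 1240 to 1367 CPM in them and 1903 to 3675 in the other 14. Neither gene overlapped, although libraries of 1 mouse are not replicates and share barcodes. With 1 cell per barcode the 381 endothelial cells of *Fmr1*-KO 3 became 316. The share of all genes for which its libraries stand apart was not counted. The summed level of the pericyte markers in endothelial cells was also highest in *Fmr1*-KO 3, with 1656 CPM against 346 to 1351 in the other mice. In pericytes themselves *Slc38a5* had 5.40 CPM ± 3.27 and *Slc7a5* 81.9 ± 23.7 (SD, n = 6 each). The part of pericyte RNA in the levels of *Fmr1*-KO 3 was not tested. Y-linked genes had 86 UMIs in *Fmr1*-KO 2 and 1696 to 5042 in each of the other 5 mice, which is given because *Slc38a5* lies on chromosome X. The paper's methods state that both sexes were used. By these counts *Fmr1*-KO 2, of batch 1, looks female and the other 5 mice male. Sex was not a term in the fits.

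**Figure D3:**
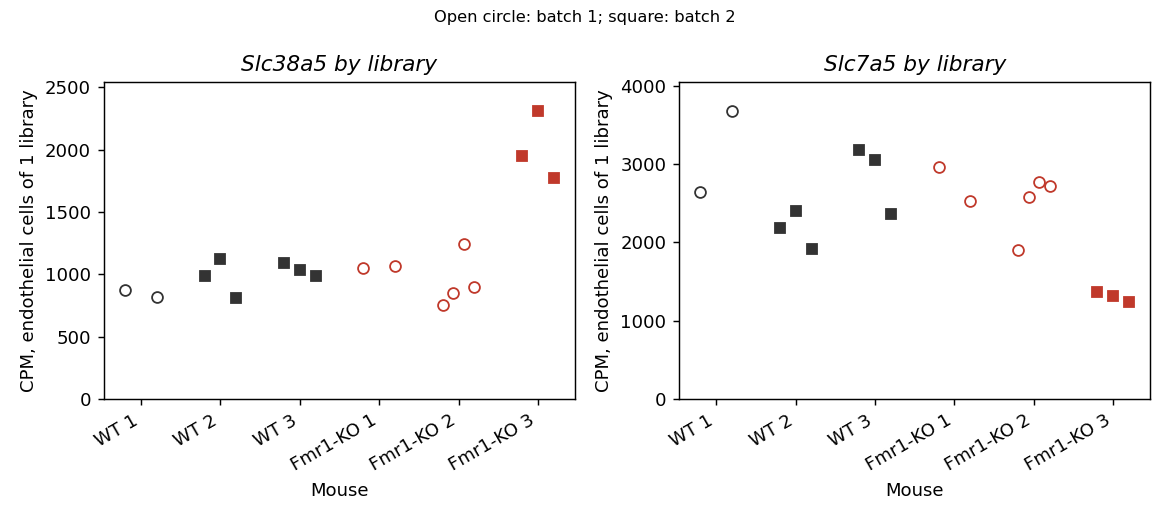
CPM of *Slc38a5* and *Slc7a5* in the endothelial cells of each of the 17 libraries, grouped by mouse (x axis), with open circles for batch 1, squares for batch 2, black for WT and red for *Fmr1*-KO. The 3 libraries of *Fmr1*-KO 3 lie between 1774 and 2309 CPM for *Slc38a5*, above all others, and between 1240 and 1367 CPM for *Slc7a5*, below all others.

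The partner of *Slc7a5* and the remaining amino acid carrier showed smaller differences. *Slc3a2* (chr19:8706882-8723369) was 1363, 1233 and 951 CPM in WT 1 to WT 3 and 1594, 1338 and 905 in *Fmr1*-KO 1 to *Fmr1*-KO 3, and the edgeR value was -0.028 (log2, SE 0.16, FDR = 0.968). The WT mice lay inside the range of the *Fmr1*-KO mice, and the means of 1182 and 1279 CPM, which are not adjusted for batch, point the other way from the fit. *Slc7a1* (chr5:148327410-148399904), the carrier of arginine and lysine, was 1969, 1528 and 1201 CPM in WT 1 to WT 3 and 2316, 1904 and 1577 in *Fmr1*-KO 1 to *Fmr1*-KO 3, with 0.21 (log2, SE 0.16, FDR = 0.658) in edgeR. It was higher in *Fmr1*-KO in 3 of the 4 within-batch pairs, from -0.048 to 0.39 on the log2 scale.

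The fuel carriers also showed small differences between the genotypes. *Slc2a1* (chr4:119108711-119137983) encodes GLUT1, the glucose carrier of the barrier. It was 1195, 1547 and 2089 CPM in WT 1 to WT 3 and 895, 1065 and 1756 in *Fmr1*-KO 1 to *Fmr1*-KO 3, with -0.11 (log2, SE 0.17, FDR = 0.860) in edgeR. Each *Fmr1*-KO mouse of batch 1 was below WT 1 (log2 differences of -0.42 and -0.17), and *Fmr1*-KO 3 lay between WT 2 and WT 3. *Slc16a1* (chr3:104638668-104658462) encodes MCT1, through which lactate and ketone bodies pass. It was 2027, 3353 and 3162 CPM in WT 1 to WT 3 and 2070, 2173 and 3371 in *Fmr1*-KO 1 to *Fmr1*-KO 3, with 0.12 (log2, SE 0.16, FDR = 0.828). The 4 within-batch differences were all above 0 but small, from 0.0079 to 0.10.

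Among the other 4 transporters the edgeR differences were at most 0.16 on the log2 scale. *Mfsd2a* (chr4:122946850-122961188), which brings omega-3 fatty acids into the brain, was 1831, 2343 and 2160 CPM in WT 1 to WT 3 and 1751, 1736 and 2172 in *Fmr1*-KO 1 to *Fmr1*-KO 3, with -0.0028 (log2, SE 0.15, edgeR FDR = 0.997). *Slco1c1* (chr6:141524368-141570177), which carries thyroxine, was 1432, 2255 and 1820 CPM in WT 1 to WT 3 and 1792, 1584 and 2005 in *Fmr1*-KO 1 to *Fmr1*-KO 3, with 0.16 (SE 0.16, edgeR FDR = 0.758). For both genes the ranges of the genotypes overlapped. *Abcb1a* (chr5:8660077-8748575) was 369, 411 and 499 CPM in WT 1 to WT 3 and 419, 390 and 463 in *Fmr1*-KO 1 to *Fmr1*-KO 3, with 0.13 (SE 0.15, edgeR FDR = 0.804). *Abcg2* (chr6:58584523-58695676), the breast cancer resistance protein, was 210, 157 and 252 CPM in WT 1 to WT 3 and 234, 207 and 226 in *Fmr1*-KO 1 to *Fmr1*-KO 3, with 0.15 (SE 0.19, edgeR FDR = 0.820). The *Fmr1*-KO mice lay inside the WT range for both pumps.

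**Figure D4:**
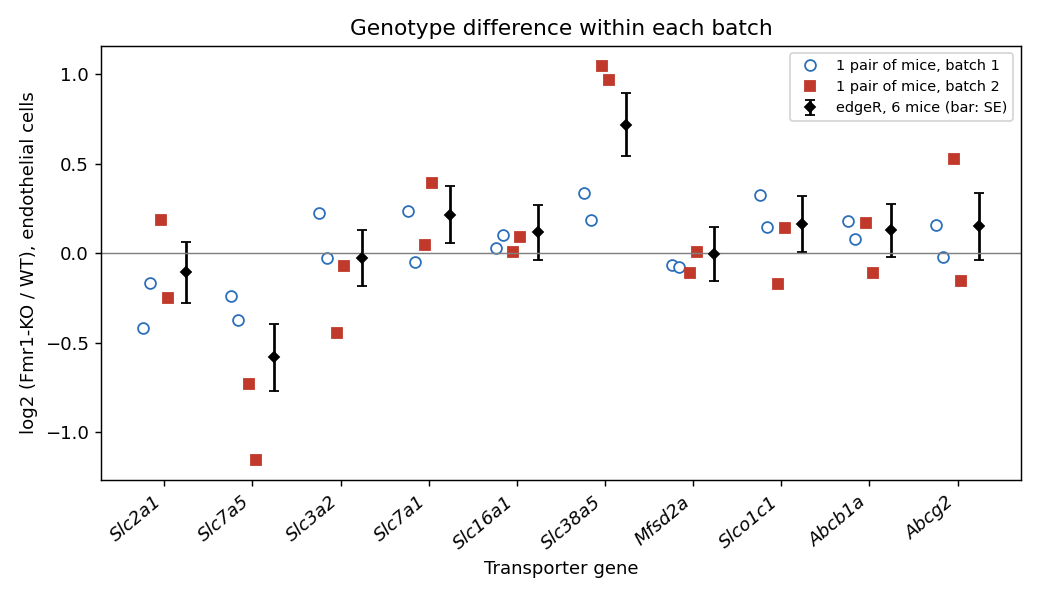
Log2 ratio of *Fmr1*-KO over WT in endothelial cells for each transporter, for each of the 4 pairs of mice within a batch (open circles batch 1, squares batch 2) and for the edgeR fit over 6 mice (diamond, with its SE). *Slc7a5* is below 0 and *Slc38a5* above 0 in all pairs, and for both genes the pairs of batch 2, which share *Fmr1*-KO 3, are farther from 0.

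Read over all 4 within-batch pairs, *Slc38a5* and *Slc16a1* were higher in *Fmr1*-KO in each pair (2 of 10, against 11.1% of all genes tested) and *Slc7a5* was lower in each (1 of 10, against 17.3%). The pairs share mice, so they are not independent. The difference between the batches was tested with a genotype by batch term. It passed an unadjusted p under 0.05 for 1 of the 10 transporters, *Slc38a5*, beside 7.6% of all genes, with a log2 difference of 0.89 (batch 2 minus batch 1, SE 0.24, edgeR FDR = 0.564). For *Slc7a5* it was -0.51 (SE 0.30, edgeR FDR = 0.684), and the other 8 lay from -0.21 to 0.37. Each batch holds only 1 mouse of one genotype, and the second batch rests on *Fmr1*-KO 3.

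The batches themselves differed for several transporters. *Slc2a1*, *Slc16a1*, *Mfsd2a* and *Slco1c1* were higher in each of the 3 mice of batch 2 than in each of batch 1 (4 of 10, against 14.3% of all genes tested). *Slc16a1* had 2090 CPM ± 75.5 (SD, n = 3) in batch 1 and 3296 ± 116 (SD, n = 3) in batch 2, or 1.58-fold. *Slc2a1* had 1052 ± 150 and 1797 ± 273, or 1.71-fold. *Slc3a2* and *Slc7a1* were lower in each mouse of batch 2 (2 of 10, against 23.7%), with 1431 ± 141 and 1030 ± 177 for *Slc3a2* and 2063 ± 221 and 1435 ± 204 for *Slc7a1*. *Abcb1a* varied least among the 6 mice, with a coefficient of variation of 11.3%, and *Slc38a5* most, with 38.2%.

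When cells in place of mice were taken as replicates, as in the methods of the study, 658 of the 4080 genes were called (16.1%), among them 3 of the 10 transporters. These were *Slc38a5* (log2 0.87), *Slc7a5* (-0.85) and *Slc7a1* (0.29), with an edgeR likelihood ratio FDR of 6.9e-37, 1.0e-44 and 1.4e-05. That test does not count the spread between mice.

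In the other 7 cell types tested, 24 combinations of transporter and type passed the 15% filter and 0 were called. Of all genes tested, 0% were called in neurons, pericytes, microglia and Astrocytes_2, 0.0208% in Astrocytes_1, 0.0245% in OPC_1 and 0.0423% in oligodendrocytes. At an unadjusted p under 0.05 there were 3 of the 24, all lower in *Fmr1*-KO oligodendrocytes, where 4.4% of all genes passed. Of all genes, 16.6% passed it in neurons, 4.72% in Astrocytes_1, 3.29% in pericytes, 4.24% in OPC_1, 3.12% in microglia and 4.26% in Astrocytes_2, with 0 transporters in each. *Mfsd2a* was 529, 390 and 349 CPM in the oligodendrocytes of WT 1, WT 2 and WT 3, while *Fmr1*-KO 1 to *Fmr1*-KO 3 had 227, 206 and 345 (log2 -0.53, SE 0.22, edgeR FDR = 0.996). The *Fmr1*-KO mice were all below the WT mice, although *Fmr1*-KO 3 and WT 3 were nearly equal. The share of all oligodendrocyte genes that separate in this way was not counted. Below the 15% filter, the *Fmr1*-KO mice were also all lower in microglia for *Slc2a1* (143 UMIs) and *Mfsd2a* (14 UMIs). For *Slc38a5* they were all higher in microglia (7 UMIs) and all lower in pericytes (16 UMIs). *Slc7a5* had 72.9 CPM ± 26.8 in WT and 43.6 ± 19.2 in *Fmr1*-KO oligodendrocytes, from 80 UMIs in all, and *Slc3a2* had 135 ± 93.5 and 84.4 ± 26.2, from 142 (SD, n = 3 each). In Astrocytes_1, the type with the most UMIs of *Slc3a2* and *Slco1c1*, the differences were 0.026 (log2, SE 0.083, edgeR FDR = 0.973) and -0.027 (SE 0.085, edgeR FDR = 0.973).

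Whether the genotype difference was another in endothelial cells than elsewhere was tested with a genotype by cell type term. Unlike the main test, this fit did not adjust for batch differences that vary between cell types. For 0 of the 10 transporters did it reach an FDR under 0.05 against pericytes, Astrocytes_1 or neurons (edgeR, smallest FDR = 0.852). At an unadjusted p under 0.05 there were 2 against pericytes, beside 2.6% of all genes, namely *Slco1c1* (log2 1.82, SE 0.61, edgeR FDR = 1) and *Slc38a5* (1.69, SE 0.64, edgeR FDR = 1), which had 40 and 16 UMIs in all pericytes. There were 0 against Astrocytes_1 (4.22% of all genes) and 0 against neurons (4.76%).

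Endothelial cells were also compared by markers of vessel segments, sprouting and division that hold none of the transporters. With all UMIs, cells with a UMI of only 1 list could be set against cells with a UMI of none only for the tip list (*Apln*, *Esm1*, *Angpt2* and others), in 4 mice, which cannot reach an exact permutation p under 0.125, and the arterial, venous and dividing classes had enough cells in at most 1 mouse. In these 4 mice *Slco1c1* was 0.60 ± 0.37 higher in cells with tip markers on the log2 scale (SD, n = 4 mice), *Slc16a1* 0.59 ± 0.21, *Mfsd2a* 0.41 ± 0.23, *Slc7a5* 0.33 ± 0.14 and *Slc38a5* 0.12 ± 0.089, each in 4 of 4 mice. *Abcb1a* differed by 0.064 ± 0.28 and was higher in 2 of 4. After thinning to 700 UMIs the same classes could be compared for the tip list in 6 mice, for the arterial list in 4 and for the venous and dividing lists in 3 each. The tip differences were then smaller, with 0.041 ± 1.05 for *Slco1c1* and 0.083 ± 0.20 for *Slc16a1*, while *Slc38a5* differed by -0.040 ± 0.40 and *Abcb1a* by -0.21 ± 0.32 (lower in 5 of 6). With arterial markers *Abcb1a* was higher by 0.83 ± 0.61, *Slc2a1* by 0.71 ± 0.25, *Mfsd2a* by 0.57 ± 0.46 and *Slco1c1* by 0.52 ± 0.25, each in 4 of 4 mice, and *Slc38a5* had a difference of -0.69 ± 0.65 and was lower in 4 of 4. To use all mice, thinned cells with and without a UMI of each list, whatever the other lists, were compared in addition, a choice made after the data were seen. With a UMI of the arterial list (*Bmx*, *Gja4*, *Hey1* and others), *Abcb1a* was 0.88 ± 0.32 higher on the log2 scale (SD, n = 6 mice), with 710 against 390 CPM. *Slc2a1* was 0.47 ± 0.22 higher and *Slco1c1* 0.47 ± 0.24 higher, each in 6 of 6 mice. *Slc38a5* was lower in cells with an arterial UMI in 6 of 6 mice, with a difference of -0.72 ± 0.57 and 843 against 1319 CPM. Each of these 4 had the smallest exact sign-flip permutation p that 6 mice allow (two-sided p = 0.031), which was 0.250 after Benjamini-Hochberg adjustment over 40 tests. With a UMI of the venous list *Slc16a1* was lower in 5 of 6 mice (-0.35 ± 0.35), and *Slco1c1* was higher in 5 of 6 (0.27 ± 0.27). A UMI of the tip list was found in 40.4% to 58.2% of the thinned endothelial cells of a mouse, so this class is named by its list only. In it *Abcb1a* was lower in 5 of 6 mice (-0.53 ± 0.37), and *Slco1c1* and *Slc16a1* differed by 0.032 ± 0.25 and 0.15 ± 0.22. In cells with at least 2 UMIs of the list of dividing cells, *Slc38a5* was higher in 5 of 5 mice (0.35 ± 0.16) and *Slc7a5* and *Mfsd2a* were lower in 5 of 5 (-0.28 ± 0.23 and -0.20 ± 0.16). In each of these ways to set the classes, 0 differences had an adjusted exact permutation p under 0.05. For classes compared in 3 to 5 mice this was fixed in advance, since their smallest possible p is above 0.05. With 6 mice it could be passed only if many of the tests reached the smallest p. The count of 0 therefore does not decide whether the classes differ.

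**Figure D5:**
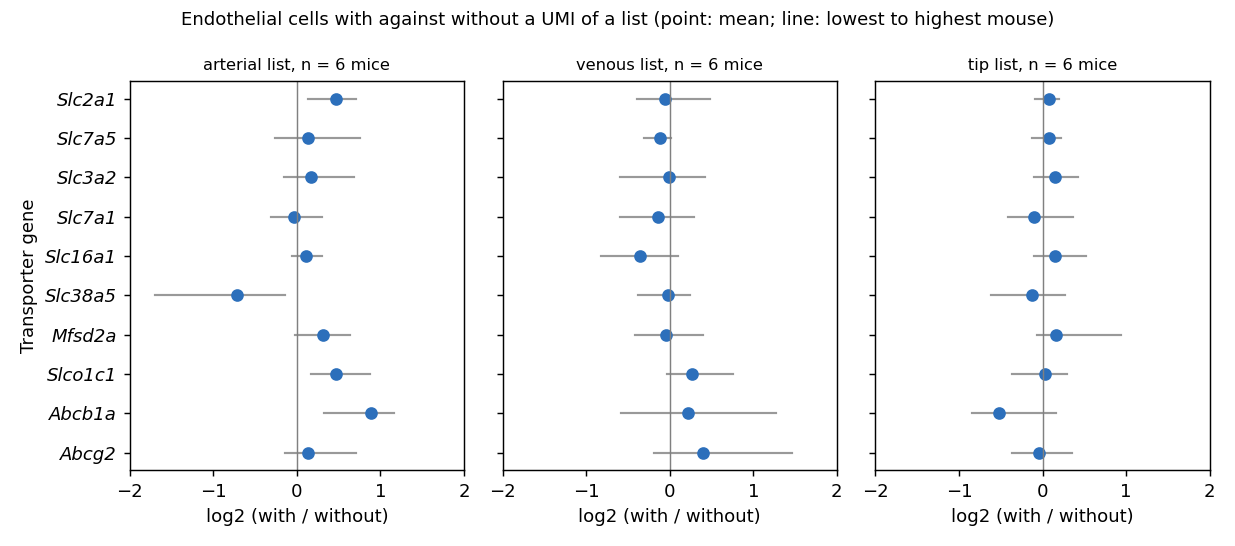
Log2 ratio of each transporter in endothelial cells with a UMI of the arterial, venous or tip list over cells without one, after thinning to 700 UMIs, with the point for the mean over 6 mice and the line from the lowest to the highest mouse. In the arterial panel *Slc2a1*, *Slco1c1* and *Abcb1a* lie above 0 and *Slc38a5* lies below 0 in each mouse.

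The share of endothelial cells with an arterial UMI was 16.3%, 25.8% and 24.5% in WT 1 to WT 3 and 20.6%, 17.7% and 15.6% in *Fmr1*-KO 1 to *Fmr1*-KO 3. *Slc38a5* was highest in *Fmr1*-KO 3 in both classes. In cells without an arterial UMI it was 2045 CPM there and 1001 to 1429 in the other mice, and in cells with one it was 1501 and 440 to 989. *Slc7a5* was lowest in *Fmr1*-KO 3 in both classes, with 1379 against 1834 to 2799 CPM and 1235 against 1953 to 4615 CPM. The part of the arterial share in the levels of a mouse was not tested.

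Further genes of the barrier were read in the same endothelial test, in which 0 genes of any list were called. The median log2 difference over all 4080 genes was -0.00024, and 11% of them passed an unadjusted p under 0.05. Of 28 other barrier transporters 18 were tested, 5 above and 13 below 0, with a median of -0.074. Of these *Slc1a1*, a glutamate carrier, passed an unadjusted p under 0.05, with 106 CPM ± 35.4 in WT, against 60.0 ± 14.7 in *Fmr1*-KO (edgeR FDR = 0.324). *Slc38a2*, a relative of *Slc38a5* for small neutral amino acids, had 2086 ± 448 and 2510 ± 330 (log2 0.32, edgeR FDR = 0.558). Of 9 tested genes of the amino acid response, which include targets of the factor ATF4 as *Slc7a5* and *Slc3a2* are, 6 lay above and 3 below 0, with a median of 0.080. *Wars*, the tryptophan tRNA ligase, was 39.6 ± 7.57 in WT, against 53.8 ± 10.9 in *Fmr1*-KO (log2 0.70, edgeR FDR = 0.334), and *Cebpb* was 90.6 ± 19.5 and 48.0 ± 26.5 (-0.47, edgeR FDR = 0.511). Of the 9 genes only *Wars* passed an unadjusted p under 0.05.

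Of 11 tested genes of receptor-mediated and vesicle transport, 4 lay above and 7 below 0, with a median of -0.11. The transferrin receptor *Tfrc*, which brings iron across, had 795 CPM ± 199 in WT, against 929 ± 211 in *Fmr1*-KO (log2 0.40, edgeR FDR = 0.416), and the insulin receptor *Insr* had 165 ± 28.6 and 127 ± 30.1 (-0.48, edgeR FDR = 0.401). These 2 of the 11 genes passed an unadjusted p under 0.05, against 11% of all genes. Of 12 tested genes of the tight junction list 10 lay below 0, with a median of -0.058. *F11r*, the gene of this list with the smallest p, lay above 0, with 386 ± 97.1 and 407 ± 136 (0.34, edgeR FDR = 0.483). *Esam*, an adhesion molecule of endothelial junctions, had 2013 ± 125 and 1619 ± 79.4 (-0.27, edgeR FDR = 0.541). Of 18 tested Wnt and barrier regulators 12 lay above 0, with a median of 0.039. The Wnt target *Apcdd1* had 3417 ± 803 and 3398 ± 782 (0.25, edgeR FDR = 0.604), with means that are not adjusted for batch and lie the other way from the fit. Of the 14 endothelial markers 8 lay above 0, with a median of 0.067. An unadjusted p under 0.05 was found for 1 higher and 1 lower gene (2 of 14, against 11% of all genes). The lower one, *Emcn*, a mucin of capillary and venous endothelium, had 273 ± 79.6 and 219 ± 78.8 (-0.59, edgeR FDR = 0.226). The higher one, *Egfl7*, had 502 ± 49.3 and 673 ± 57.7 (0.41, edgeR FDR = 0.312).

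All 14 tested genes of the response to dissociation lay below 0 in *Fmr1*-KO mice, with a median log2 difference of -0.29. Of the 14, 3 (*Zfp36*, *Btg2* and *Jund*) passed an unadjusted p under 0.05, against 11% of all genes. Their summed level was 8830, 12537 and 12920 CPM in WT 1 to WT 3 and 5975, 7615 and 10884 in *Fmr1*-KO 1 to *Fmr1*-KO 3. *Zfp36*, a stress-induced regulator of mRNA decay, had 432 ± 43.0 in WT, against 282 ± 46.7 in *Fmr1*-KO (log2 -0.64, edgeR FDR = 0.210). Of the 4 tested genes of dividing cells all lay above 0, with a median of 0.39, and *Ube2c*, a gene of mitosis, had 67.0 ± 28.0 and 104 ± 25.7 (0.98, edgeR FDR = 0.193). Of 5 tip genes tested 4 lay below 0, with a median of -0.26, and *Angpt2*, a ligand made by sprouting endothelium, had 214 ± 43.2 and 140 ± 36.0 (-0.71, edgeR FDR = 0.250). The 2 arterial genes tested differed in sign, with *Hey1*, a Notch target, at 205 ± 23.3 and 111 ± 50.9 (-1.05, edgeR FDR = 0.193) and *Gja4* at 142 ± 73.4 and 220 ± 69.5 (0.60, edgeR FDR = 0.498). An unadjusted p under 0.05 was reached by 2 of 4 dividing, 2 of 5 tip and 1 of 2 arterial genes. *Ube2c*, *Angpt2* and *Hey1* were among them. The 2 venous genes tested had a median of 0.19. Of the markers of other cells, 3 pericyte genes were tested, with a median of 0.48 and an edgeR FDR of at least 0.620, 3 astrocyte genes with a median of -0.19 and 1 erythroid gene with -0.22. The part of these lists in the transporter values was not tested.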

How the data were processed

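Per the paper's methods, the authors aligned reads to mm10 with TopHat2 2.0.14, used ESAT to count UMIs of RefSeq genes from reads with 1 position, removed barcodes below 700 UMIs, erythrocytes and hemoglobin genes, and clustered the cells. They deposited raw UMI counts per gene and cell without normalization, and an annotation with mouse, cell type, subtype and a size factor (a deposited ratio that scran gave per batch). The groups came from the labels and the batch of each mouse from the paper's list of collections, which follows the bead version of the labels.

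For each mouse and cell type the counts were added up, without doublets and without mice with fewer than 10 cells of the type, in the types with at least 100 cells per genotype. Sums were tested with edgeR 4.0.16 (TMM, quasi-likelihood, R 4.3.3), for genes that 15% or more of those cells held. The SE given with an edgeR value is its absolute log2 difference divided by the square root of the F statistic of the test. For within-batch ratios 0.5 CPM was added. Genotype by cell type was fitted with the mouse as a block and without a batch by cell type term. Tables were made with Python 3.11.15, scipy 1.17.1 and pandas 2.3.3. Tests were tried on simulated data. The size factors were used only with cells as replicates.

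The alternatives were each mouse left out, the batch term dropped, a block for the replicate number, no TMM, DESeq2 1.42.0, filterByExpr or no filter, thinning to 700 UMIs, another threshold, doublets kept and cells as replicates. After seeing the data, 1 cell per barcode and mouse, the wider classes by marker and the fits of the other lists were added. The genes named are the 10 transporters, *Fmr1*, from each list up to 3 genes with the smallest p in endothelial cells, and the 3 genes most like a transporter over subtypes. Examples of list genes given in parentheses name the lists only. The transporters and lists were chosen with earlier results of these data known. Counting error is largest in WT 1, with 81 endothelial cells, and counting intervals cover that error only. Gene positions are those of GENCODE vM21 (GRCm38).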

Additional observations from a re-analysis of the deposited data

How the results depend on the processing

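The count of genes called in endothelial cells was 0 and became 5 with no filter on low counts (*Myl9*, *Lcn2*, *Hey1*, *Atp5k* and *Slc38a5*, chosen here after their values were seen), 658 with cells as replicates and 1 with the replicate block and the batch term together (*Myl9*), and 0 to 1 when a mouse was left out (*Myl9*, without WT 2). The count of transporters called, 0, became 1 with no filter (*Slc38a5*, log2 0.74, edgeR FDR = 0.00408) and 3 with cells as replicates, and stayed 0 whichever mouse was left out. The count over the other lists, 0, became 1 with no filter (*Hey1*) and 39 with cells as replicates. In the other cell types 0 transporters were called under each alternative run. Same-numbered mice are paired by a number only: their deviations from the group means correlated at 0.458, -0.277 and 0.531 over endothelial genes, and the 2 positive values are mice of the same batch. Beyond this 1 gene the block changed no call.

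Signs turned only for transporters far from the threshold. With cells thinned to 700 UMIs *Slc2a1* was 0.052, *Slc7a1* -0.020 and *Abcg2* -0.087 (log2). With no batch term *Slc3a2* was 0.12, *Slc16a1* -0.13 and *Slco1c1* -0.0091. With the replicate block in place of the batch term *Slc3a2* was 0.11 and *Slc16a1* -0.15, and with the replicate block and the batch term *Slc3a2* was 0.11 and *Mfsd2a* 0.010. With cells as replicates *Abcb1a* was -0.046 and *Abcg2* -0.025. *Mfsd2a* was 0.00030 with 1 cell per barcode and mouse, 0.00027 with DESeq2, 0.065 with doublets kept and 0.022 with no filter. Leaving out a mouse in turn gave -0.30 to 0.071 for *Slc2a1*, -0.13 to 0.086 for *Slc3a2*, -0.087 to 0.080 for *Mfsd2a* and -0.0092 to 0.35 for *Abcg2*. *Slc38a5* stayed above 0 (0.25 to 1.13) and *Slc7a5* below 0 (-0.85 to -0.32) under all 17 alternatives fitted, and the ends of these ranges near 0 are the fits without *Fmr1*-KO 3. The median difference over all genes was -0.076 without TMM. All 10 transporters remained highest in endothelial cells in every mouse with at least 30 cells per subtype, and 9 of 10 after thinning, when *Slc2a1* in *Fmr1*-KO 1 had 833 CPM in ependymal cells (7 UMIs in 12 cells) and 782 in endothelial cells. The genotype by batch and genotype by cell type terms were fitted once. The cause of these changes was not tested. With 81 endothelial cells in WT 1 and 1 mouse of one genotype in each batch, a difference of the size seen in batch 1 could not be told from the spread between mice.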
